A study of Mus musculus with 4 samples.

Results

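The comparison described here is that of the Apc mutation in mice whose intestinal epithelium lacks Vhl. It takes the array of the genotype VhlΔIE/Apcmin/+ minus the array of the genotype VhlΔIE, which are 2 of the 4 arrays of the series. Genes were taken from probe sets (the groups of short probes that report 1 transcript) with a single gene symbol, and each gene took its probe set with the highest mean. Of 18194 genes on the array, 11871 reached a log2 value of 6 on at least 1 of the 4 arrays, and these were compared. The comparison addresses which transcripts of the colon differ with the Min allele of Apc once Vhl is deleted.

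All mice were of the 129S6/SvEv strain and 5 weeks of age, and RNA came from scraped mucosa of the colon. VhlΔIE mice carry an intestine-specific Vhl knockout, and both arrays compared come from mice with that deletion. VhlΔIE/Apcmin/+ mice carry in addition the heterozygous Min mutation of Apc, an intestinal tumour model. The other genotypes are VhlF/F, with floxed Vhl, and VhlF/F/Apcmin/+, with floxed Vhl and the same Apc mutation. The 4 arrays are called deleted (VhlΔIE), deleted Min (VhlΔIE/Apcmin/+), floxed (VhlF/F) and floxed Min (VhlF/F/Apcmin/+) from here on. The promoter that drives Cre is not given in the sources used here, and neither is whether adenoma tissue was scraped with the mucosa. The design text counts 3 deleted, 5 deleted Min, 4 floxed and 3 floxed Min mice, without saying whether their RNA was pooled. Each genotype was measured on 1 array, so there is no spread between replicates, no difference below has a replicate check, and no test was possible.

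Apc is a scaffold of the complex that marks beta-catenin for destruction. Its loss lets beta-catenin act with TCF and LEF factors on Wnt target genes, which keep crypt cells dividing. Vhl picks out hypoxia-inducible factors (HIF) for the ubiquitin ligase that removes them, so deleting it leaves HIF active in normal oxygen. The colon epithelium that is renewed from the crypts holds absorptive colonocytes, mucus-secreting goblet cells and rarer tuft and enteroendocrine cells.

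Values are the deposited log2 values of the robust multi-array average (RMA), on which a difference of 1 is a 2-fold difference. They set arrays side by side for 1 gene and are not used to rank genes by abundance. The 4 array medians lay between 6.05 and 6.07. Vhl read 7.03 on the deleted and 6.56 on the deleted Min array, below the 8.40 and 8.17 of the floxed and floxed Min arrays. The 4 control probe sets for Cre read 7.41 to 9.95 on the arrays compared and 2.97 to 4.45 on the others, and they differed by -0.16 to 0.25 between the arrays compared. Apc itself differed by 0.27, which checks no label, because Min is a point mutation. Xist, the RNA that coats an inactive X chromosome, read 5.58 and 6.25 on the deleted and deleted Min arrays but 11.37 and 11.83 on the floxed and floxed Min arrays. The Y-linked Eif2s3y read 8.78 and 8.80 on the arrays compared, 8.58 on the floxed and 7.27 on the floxed Min array. Uty and Kdm5d, also Y-linked, differed by -1.19 and -1.47 within the floxed pair. Sex-linked transcripts thus differed between the arrays compared and the floxed pair, and within that pair, and the part of sex in values set against the floxed pair was not tested. The floxed array also stood apart in liver transcripts: Alb, albumin, read 11.53 there and 6.10 on the floxed Min array, and 20 of 24 hepatocyte genes were at least 2-fold lower in that pair, with a median of -2.32. Only 11 of these 24 genes reached the floor on the arrays compared. The others entered through the floxed array, which favours such a fall and enlarges that count and median. Among markers of the labelled tissue, 29 of 30 colonocyte genes and 24 of 24 goblet cell genes on the array reached the floor.

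Few genes differed by 2-fold with the Apc mutation once Vhl was deleted. A value higher by at least 1 was found for 24 genes, which is 0.202% of those compared. A value lower by at least 1 was found for 14 genes, which is 0.118%. Across all genes the median difference was 0.00 and the standard deviation over genes 0.21, with 50.5% of values higher and 49.4% lower. At a 1.5-fold threshold 86 genes (0.724%) were higher and 94 (0.792%) lower. For 95% of genes the difference was at most 0.40 in size, and for 99% at most 0.65. The spread was wider among dim genes: the standard deviation over genes was 0.34 where the mean over the 4 arrays was under 6, 0.24 from 6 to 8, 0.19 from 8 to 10 and 0.16 from 10 upward. Of the 24 higher genes, 7 lay in the dimmest of these classes, which holds 446 genes, and 3 in the brightest, which holds 2748. Per3, Vsig2 and Igkv6-20 were the last genes inside the threshold among the higher ones, at 1.08, 1.04 and 1.00. Arg1, Gpat3 and Col8a1 were the first outside it, at 0.98, 0.97 and 0.96. On the lower side Dmp1, Slc34a2 and Mmrn1 lay just inside at -1.30, -1.19 and -1.09. The symbol 2010106E10Rik, Fxyd4 and Ereg lay just outside at -0.998, -0.99 and -0.95.

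**Figure D1:**
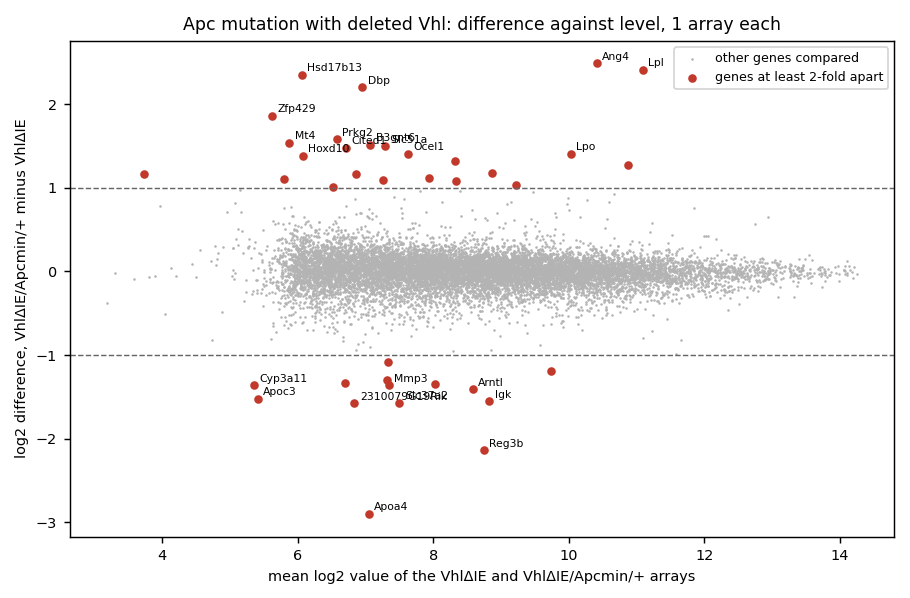
The difference between the VhlΔIE/Apcmin/+ and VhlΔIE arrays (vertical axis, log2) is plotted against the mean of these arrays (horizontal axis, log2) for all 11871 genes, with the 38 genes at least 2-fold apart in red and the threshold as dashed lines. Most genes lie in a band around 0 that narrows towards high values, and Ang4 and Lpl stand above it among the bright genes.

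Other probe sets of the same genes on the same arrays share the RNA and are no replicates. Of the 38 genes, 11 had another probe set above the floor. These 11 genes had 17 such probe sets, of which 16 differed in the same direction and 10 by at least 2-fold. The exception was in Igk. Over all genes, probe sets of 1 gene differed from each other with a standard deviation of 0.15 per probe set.

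Antimicrobial proteins of the epithelium went both ways. Ang4, a bactericidal ribonuclease of Paneth and goblet cells, read 9.17 on the deleted array and 11.66 on the deleted Min array, with 10.61 on the floxed and 7.35 on the floxed Min array. That is a difference of 2.49, or 5.60-fold, the highest of the comparison, and the deleted Min array was the highest of the 4. A further probe set of Ang4 differed by 1.87. Reg3b, a C-type lectin secreted against bacteria, read 9.81 and 7.67 on the deleted and deleted Min arrays and 9.87 and 6.06 on the floxed and floxed Min arrays. Its relative Reg3g, which binds Gram-positive bacteria, read 7.37 and 6.04, with 7.53 and 5.25 in the floxed pair. The differences were -2.14 and -1.33. Both Reg3 genes were at like levels on the arrays without the Apc mutation and lower on both arrays with it.

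Reg3b and Reg3g lie on chromosome 6 with 4 protein-coding genes between them. Of these, Reg3d, Reg3a, Reg2 and Reg1, none reached the floor. Lpo, lactoperoxidase, which makes antibacterial oxidants from hydrogen peroxide, read 9.32 and 10.73 on the deleted and deleted Min arrays and 11.32 and 11.43 on the floxed and floxed Min arrays. Its difference was 1.41, with the deleted array lowest of the 4. Retnlb, a goblet cell lectin-like protein that acts on bacteria, differed by 0.73, and Nos2, the inducible nitric oxide synthase, by 0.55. Over the antimicrobial list of 22 genes above the floor, 11 were higher and 10 lower, and 3 were 2-fold apart, Ang4 upward and both Reg3 genes downward. Its median of 0.01 is next to that of all genes, and the list therefore had no common direction. Ang4 is also in the Paneth cell list, of which 5 of 8 genes on the array reached the floor, and whose summed level (on the linear scale) was 5570 on the deleted and 7393 on the deleted Min array. Without Ang4 the sum of the other 4 genes was 4993 and 4163, while their median difference was 0.32. Lyz1, the Paneth cell lysozyme, differed by -0.29. Pnliprp2, Mmp7 and Pla2g2a differed by 0.57, 0.49 and 0.15, the last with both values under the floor. In bulk mucosa, fewer cells of a type and less RNA per cell cannot be told apart.

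Genes of lipid handling held the next largest differences, again in both directions. Lpl, lipoprotein lipase, which frees fatty acids from circulating triglyceride, read 9.88 on the deleted array and 12.29 on the deleted Min array, with 10.31 and 8.999 on the floxed and floxed Min arrays. The difference was 2.41, and a further Lpl probe set differed by 2.95. Hsd17b13, an enzyme on the surface of lipid droplets, read 4.89 and 7.24, with 5.66 and 3.85 in the floxed pair. Its difference of 2.35 started from a value under the floor of 6. Both genes were highest on the deleted Min array and lowest on the floxed Min array. Dgat2, which makes the last step of triglyceride synthesis, differed by 0.86. Cd36, a fatty acid transporter, and Fabp1, a fatty acid carrier of enterocytes and liver, differed by -0.69 and -0.83. Fabp1 read 5.14 and 4.32 on the arrays compared, both under the floor, and entered through 7.80 on the floxed array. Of the 29 genes of lipid uptake and droplets above the floor, 17 were higher and 12 lower, with a median of 0.07.

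Markers of adipocytes, a main site of Lpl, were more often lower than higher. Of 12 above the floor, 4 were higher and 8 lower, with a median of -0.12. Fabp4 differed by -0.66, Retn by -0.60 and Adipoq by -0.38. The 4 higher ones were Plin4 and Pparg at 0.15, Pck1 at 0.10 and Cidec at 0.09. The summed level of the adipocyte list was 5029 on the deleted and 4033 on the deleted Min array. The part of adipocytes in the Lpl difference was not tested.

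Of the apolipoproteins, which coat intestinal and hepatic lipoproteins, 3 were among the lower genes. Apoa4, secreted on chylomicrons and the lowest gene of the comparison, read 8.50 on the deleted array and 5.60 on the deleted Min array, with 8.25 on the floxed and 7.07 on the floxed Min array. The difference was -2.90, and a further probe set of Apoa4 differed by -1.99. Apoc3, an inhibitor of lipoprotein clearance, read 6.17 and 4.65, with 7.86 and 5.19 in the floxed pair, a difference of -1.53. Apoa1, the main protein of high-density lipoprotein, read 8.70 and 7.35, with 9.22 and 5.75 in the floxed pair, a difference of -1.34. All of its other probe sets above the floor were lower too. Each of the 3 genes was lower with the Apc mutation in both pairs of arrays. They are also made in liver, and in the floxed pair the hepatocyte list was lower with them, as given above, whose part in their floxed differences was not tested.

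The apolipoprotein genes Apoa1, Apoc3 and Apoa4 are adjacent on chromosome 9. Apoa5, the next gene beyond Apoa4, differed by 0.03, and Sik3, the gene before Apoa1, by -0.24, and none of the other 8 measured genes within 5 places of Apoa1 differed by more than this in size. Over the apolipoprotein list, 10 of 25 genes were higher and 15 lower, with a median of -0.04. That list also holds Lpl, its member at least 2-fold higher. With values under 6 raised to 6, Apoc3 differed by only -0.17, since its deleted array value lay just above that level. Of the 24 hepatocyte genes above the floor, 13 were so only through the floxed arrays and read under 6 on both arrays compared. Of the other 11, 4 were higher and 7 lower, with a median of -0.16, and Alb read 7.24 and 7.08. Summed levels of the 24 were 6882 and 6310. The small-intestinal enterocyte list, which holds none of the apolipoproteins, had 9 of 21 genes higher and a median of -0.05, with Alpi, intestinal alkaline phosphatase, at 0.86.

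Components of the circadian clock differed on both arms of its feedback loop. The clock is a loop in which Arntl, Clock and Npas2 activate Per, Cry and Nr1d genes through E-box letters in DNA, and the products of these genes repress Arntl in return. Dbp, an output factor driven by E-boxes that binds D-box letters, read 5.86 on the deleted array and 8.05 on the deleted Min array, with 9.37 on the floxed and 10.74 on the floxed Min array. The difference was 2.20 and that of its other probe set 2.15. Per3, a period protein, read 7.80 and 8.88, with 9.40 and 10.18 in the floxed pair, a difference of 1.08. Its 4 other probe sets above the floor differed by 0.06 to 1.18, 1 of them by at least 2-fold. The mean over Per3 probe sets differed by 0.67, under 2-fold. Arntl (also called Bmal1) read 9.29 and 7.88, with 8.69 and 8.07 in the floxed pair, a difference of -1.41, and its other probe set differed by -0.67. Dbp and Per3 were thus higher and Arntl lower on the Apc mutant array of both pairs, and the deleted array was lowest of the 4 for Dbp and Per3 and highest for Arntl.

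Several other clock genes lay on the same sides, and Cry1 did not. The repressor Nr1d2 differed by 0.92, from 10.20 to 11.13. Per1 differed by 0.64, from 8.44 to 9.08. Tef, a relative of Dbp, differed by 0.95, from 8.99 to 9.94. Npas2, a partner of Arntl, differed by -0.64, and Nfil3, which represses through D-boxes, by -0.43. Cry1, a repressor that acts with Per proteins, differed by -0.29, from 8.61 to 8.33, and its relative Cry2 by 0.08. Among the clock outputs Tspan4 differed by 0.58 and Usp2, a deubiquitinase, by 0.30. In the core clock list 10 of 16 genes were higher and 6 lower with a median of 0.16. In the output list 9 of 13 were higher and 4 lower with a median of 0.19. With floxed Vhl the differences were 1.37 for Dbp, 0.78 for Per3, 0.47 for Nr1d2, 0.71 for Per1, 0.61 for Tef, -0.71 for Npas2, -0.87 for Nfil3 and -0.62 for Arntl. The hour at which the mice were killed is not in the labels, and it cannot be told apart from genotype with 1 array each.

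**Figure D2:**
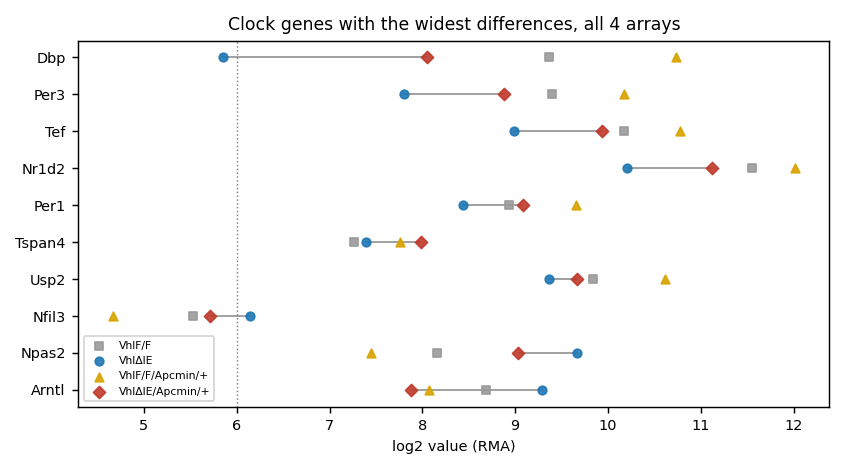
Log2 values (horizontal axis) of 10 clock and clock output genes on the 4 arrays, 1 symbol per array, with a grey line joining the VhlΔIE and VhlΔIE/Apcmin/+ arrays and a dotted line at the floor of 6. Dbp, Per3, Tef, Nr1d2 and Per1 lie to the right on the Apc mutant array of each pair, and Npas2 and Arntl lie to the left.

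Promoters of some clock genes show the letters these factors bind. The promoter window ran from 250 bases before to 50 after each start, in the RefSeq table of GRCm38.p6. Both strands were searched for the E-box CACGTG, the D-box TTANGTAA and the ROR element (the letters GGTCA after a short A and T stretch), through which Nr1d and ROR proteins act. Of 32851 promoters, 7.15% held the E-box, 2.32% the D-box and 2.46% the ROR element. The stretches below are from genes with clock differences above, picked because their window held an E-box or D-box, with the matched letters in capitals. Other clock genes named above, such as Dbp, Nr1d2 and Arntl, are not shown. The Per3 stretch lies at chr4:151044796-151044890 on the minus strand and holds the D-box at 2 places. The Per1 stretch lies at chr11:69098763-69098808 on the plus strand, and those of Tef at chr15:81802526-81802571 and chr15:81811256-81811301 on the plus strand. Tspan4 lies at chr7:141476309-141476354 on the plus strand.
Per3 D-box: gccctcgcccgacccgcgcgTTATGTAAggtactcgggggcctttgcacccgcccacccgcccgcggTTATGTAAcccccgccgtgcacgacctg
Per1 E-box: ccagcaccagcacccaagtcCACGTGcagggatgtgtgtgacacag
Tef E-box, first start: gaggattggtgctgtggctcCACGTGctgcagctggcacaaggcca
Tef E-box, second start: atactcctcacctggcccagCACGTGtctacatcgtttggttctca
Tspan4 E-box: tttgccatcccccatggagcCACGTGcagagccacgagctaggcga

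The E-box was present in 3 of 13 core clock genes with a promoter entry, against 11.6% of the 9565 compared genes with one. Among the genes at least 2-fold apart, 28 had an entry. The E-box was found in Hoxd10 and Slc51a of the 16 higher genes and in Dmp1 of the 12 lower ones. The D-box was found in Per3 alone, and the ROR element in Lpo of the higher and Arntl and Cyp3a11 of the lower genes. Across all compared genes, those with an E-box had a median difference of 0.00 and those with a D-box one of -0.01, beside 0.00 for the genes without each. A match describes letters only, not binding.

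Enzymes of surface glycans and of cyclic GMP signalling were among the higher genes. B3gnt6, the core 3 synthase that starts one class of mucin sugar chains in the colon, read 6.32 on the deleted array and 7.83 on the deleted Min array, with 8.51 on the floxed and 5.70 on the floxed Min array. Its difference was 1.51. B4galnt1, which makes gangliosides rather than mucin chains, read 7.39 and 8.50, with 8.51 and 6.14 in the floxed pair, a difference of 1.11. Its mean over probe sets differed by 0.66. In B4galnt1 the deleted Min value was close to the floxed one, and in both genes the deleted and floxed Min values were the lowest. Of 26 genes for mucin glycosylation 15 were higher and 11 lower, with a median of 0.02. C1galt1, the core 1 synthase, differed by -0.52, and the sialyltransferase St3gal3 by 0.57.

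Goblet cell markers were higher in 20 of 24 genes, although by small amounts, with a median of 0.09 and none at least 2-fold apart. Spdef, the transcription factor of goblet cell maturation, differed by 0.43, from 9.46 to 9.90, and Atoh1, which sets the secretory fate, by 0.31. With floxed Vhl 4 of the 24 were higher and 20 lower, with a median of -0.14.

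Prkg2, the cyclic GMP-dependent kinase of the apical membrane, read 5.79 on the deleted array and 7.37 on the deleted Min array, with 6.66 and 4.95 in the floxed pair, a difference of 1.58. The hormones upstream of it were higher too. Guca2a, guanylin, differed by 0.65, from 12.61 to 13.26, and Guca2b, uroguanylin, by 0.61, from 8.49 to 9.10. Slc9a3, the sodium-proton exchanger that this pathway inhibits, differed by 0.58. Over the 23 genes of cyclic GMP signalling and secretion, 13 were higher and 10 lower, with a median of 0.11.

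Absorptive colonocyte and drug-metabolizing genes gave 4 further differences. Cyp2c55, a colon-enriched P450 enzyme that oxidizes arachidonic acid, read 10.25 on the deleted and 11.51 on the deleted Min array, with 13.27 on the floxed and 12.90 on the floxed Min array. Its neighbour Cyp2c65 on chromosome 19 read 7.66 and 8.99, with 9.31 and 6.59 in the floxed pair. The differences were 1.27 and 1.32, and since genes of this family have like sequences, a share of common signal was not tested. Cyp2c29 of the same cluster differed by -0.48, from 5.12 to 4.64, both under the floor. The deleted array was lowest of the 4 for Cyp2c55, and the floxed Min array for Cyp2c65.

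Ugt2b5, a glucuronosyltransferase, read 3.16 and 4.32, both under the floor, and entered through 6.13 on the floxed array. Its difference of 1.16 is one between 2 dim values. Cyp3a11, the main drug-oxidizing P450 of liver and gut, read 6.03 and 4.67, with 9.65 and 5.55 in the floxed pair, a difference of -1.36. With values under 6 raised to 6 it was -0.03. Over all 38 xenobiotic genes above the floor, 20 were higher and 18 lower, with a median of 0.02, and over the 29 colonocyte genes 19 were higher and 10 lower, with a median of 0.07.

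**Figure D3:**
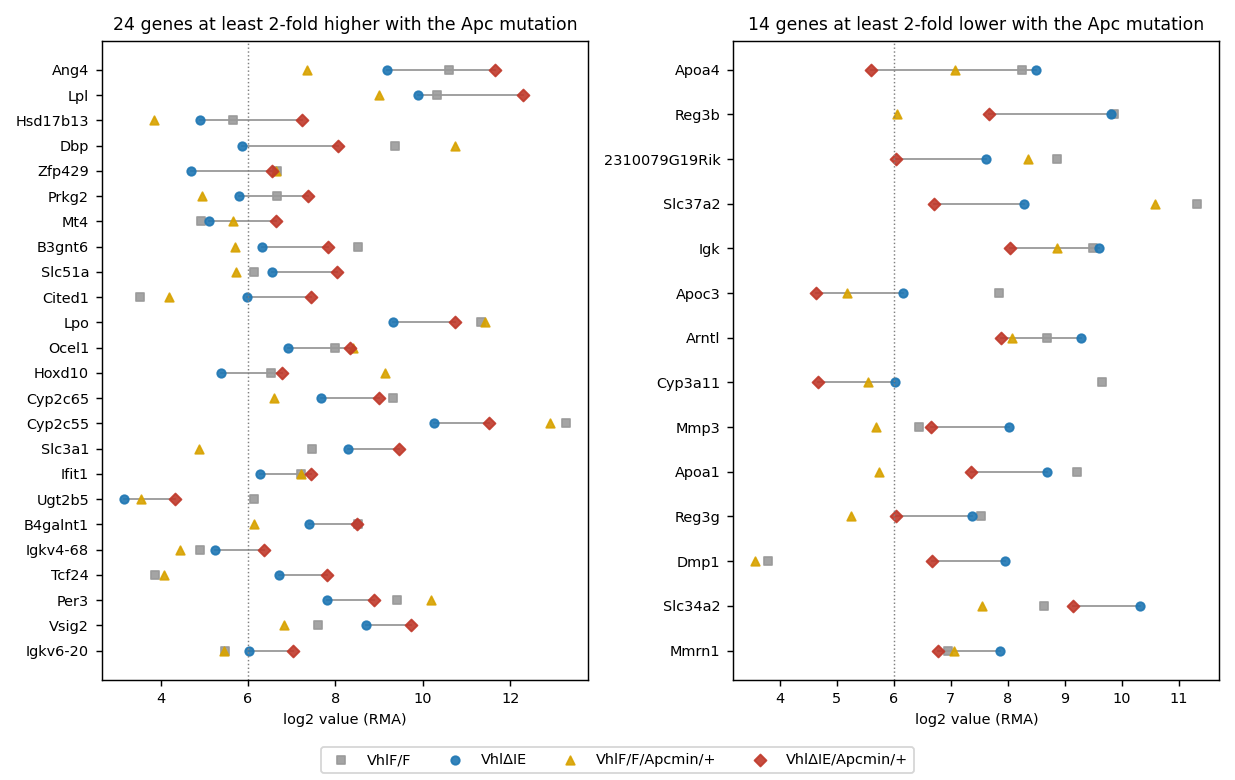
Log2 values (horizontal axis) of the 24 higher genes (left) and the 14 lower genes (right) on the 4 arrays, 1 symbol per array, with a grey line between the VhlΔIE and VhlΔIE/Apcmin/+ arrays and a dotted line at the floor of 6. The VhlΔIE/Apcmin/+ array is highest of the 4 for 13 of the higher genes and lowest for 8 of the lower genes. The genes were chosen by its difference from the VhlΔIE array, which favours such places.

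Transporters and metal-binding proteins differed one by one. Slc51a, the alpha chain of the basolateral bile acid exporter, read 6.55 on the deleted and 8.04 on the deleted Min array, with 6.13 and 5.73 in the floxed pair, a difference of 1.49. Slc51b, its obligate partner chain, differed by 0.09. Slc3a1, the heavy chain of the cystine and dibasic amino acid transporter, read 8.28 and 9.45, with 7.46 and 4.87 in the floxed pair, a difference of 1.18. Slc51a and Slc3a1 were both highest on the deleted Min array and lowest on the floxed Min array. Slc37a2, a sugar-phosphate exchanger of the endoplasmic reticulum, read 8.29 and 6.72, with 11.33 and 10.59 in the floxed pair, a difference of -1.57. Slc34a2, the apical sodium-phosphate cotransporter, read 10.33 and 9.14, with 8.64 and 7.56 in the floxed pair, a difference of -1.19. The gap between the arrays compared was in Slc37a2 smaller than that between either of them and the floxed arrays.

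Mt4, a metallothionein best known from squamous epithelium, read 5.11 and 6.64, with 4.91 and 5.64 in the floxed pair, a difference of 1.53. The other metallothioneins beside it differed in both directions, Mt3 by 0.70, Mt2 by -0.82 and Mt1 by -0.22. Mt4 differed by 0.64 once values under 6 were raised to 6.

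Regulators of transcription made up a further set. Cited1, a coregulator that binds CBP and p300, read 5.97 on the deleted and 7.45 on the deleted Min array, with 3.52 and 4.19 in the floxed pair, a difference of 1.48. Tcf24, a basic helix-loop-helix factor, read 6.71 and 7.80, with 3.87 and 4.08 in the floxed pair, a difference of 1.09. In both genes the 2 arrays with Vhl deletion were the highest. Hoxd10, which patterns the hind part of the body axis, read 5.38 and 6.77, with 6.52 and 9.13 in the floxed pair, a difference of 1.38. The neighbouring Hoxd11, Hoxd13 and Hoxd9 differed by 0.71, 0.40 and 0.40. Hoxd11 read 4.81 and 5.52 on the arrays compared, both under the floor, and entered through 7.43 on the floxed Min array. All of these Hoxd genes were lowest on the deleted array and highest on the floxed Min array. Of 16 axial patterning genes above the floor 12 were higher and 4 lower, with a median of 0.20. The 4 lower ones were Hoxb13 at -0.31, Hoxa13 at -0.06, Hoxa11 at -0.04 and Cdx1 at -0.01. Where along the colon the mucosa was scraped is not in the labels, and it cannot be told apart from genotype here.

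Zfp429, a zinc finger protein, read 4.69 on the deleted array and 6.55 to 6.66 on the other arrays, a difference of 1.86. With values under 6 raised to 6 it was 0.55, and that of Hoxd10 0.77. Ocel1, which shares a domain with occludin, read 6.92 and 8.32, with 7.98 and 8.41 in the floxed pair, a difference of 1.40. Vsig2, a membrane protein of the immunoglobulin superfamily, read 8.70 and 9.73, with 7.60 and 6.82 in the floxed pair, a difference of 1.04. In Zfp429 and Ocel1 the deleted array stood below the other arrays, while in Vsig2 the deleted Min array was the highest.

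Interferon response genes were higher as a list by small amounts. Ifit1, which binds viral RNA, read 6.27 on the deleted and 7.44 on the deleted Min array, with 7.21 on the floxed and 7.22 on the floxed Min array. Its difference was 1.17, and the deleted array stood below the other arrays, which lay close together. Usp18, which removes the ubiquitin-like Isg15, differed by 0.77, Zbp1, a sensor of nucleic acids, by 0.70, Oasl2 by 0.63 and Rtp4 by 0.62. Of 47 interferon genes above the floor 40 were higher and 7 lower, with a median of 0.20, beside 50.5% higher among all genes. With floxed Vhl 23 were higher and 24 lower, with a median of -0.01.

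The interferon-stimulated response element, a pair of GAAA letters with a short gap to which interferon-regulated factors bind, was searched for on both strands. It was in 16 of 34 interferon genes with a promoter entry (47.1%) and in 3.44% of all promoters. The 340 compared genes that hold it had a median difference of 0.01. The Ifit1 promoter at chr19:34640765-34640833 on the plus strand is shown because Ifit1 was the interferon gene at least 2-fold higher, and Ifit3 at chr19:34583353-34583436 on the plus strand because it is a near relative that also holds the element at 2 places, farther apart. The capitals mark the matched letters, which are the reverse complement here.
Ifit1: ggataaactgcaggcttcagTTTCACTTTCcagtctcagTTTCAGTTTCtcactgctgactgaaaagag
Ifit3: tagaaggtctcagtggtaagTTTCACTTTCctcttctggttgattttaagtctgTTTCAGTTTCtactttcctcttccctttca

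Wnt target genes, the direct readout of beta-catenin, differed little. Of 21 above the floor 15 were higher and 6 lower, none by 2-fold, with a median of 0.17. Cdx2, the intestinal identity factor, differed by 0.64, from 9.84 to 10.49. Mmp7, the protease matrilysin, differed by 0.49, Rnf43, which removes Wnt receptors, by 0.33, Ccnd1, cyclin D1, by 0.30, and Cd44 by -0.31. Axin2, Lgr5 and Myc, named for their role after their values were seen, differed by 0.01, 0.21 and 0.11. With floxed Vhl 13 of the 21 were higher, with a median of 0.05 and Cdx2 at -0.64. Components of the pathway were even closer, with a median of 0.01 over 35 genes. Ctnnb1, beta-catenin, differed by 0.01 and Tcf7l1 by -0.36. The TCF/LEF letters ATCAAAG, searched for on both strands, were in none of the 16 higher genes and in Reg3g alone among the 12 lower ones, beside 3.73% of all promoters.

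Stem cell markers had 13 of 17 genes higher and a median of 0.11, led by Prom1 at 0.76 and Cdca7 at 0.38. With the mean over probe sets the median was 0.02. Proliferation genes were the other way, with 7 of 25 higher, 18 lower and a median of -0.14. Kif11, a mitotic motor, differed by -0.62, Birc5 by -0.36, Aurkb by -0.34 and Mki67 by -0.31. With floxed Vhl 2 of the 25 were higher, with a median of -0.23.

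HIF targets, which Vhl deletion is known to raise, had no common direction between the arrays compared. Of 36 above the floor 17 were higher and 19 lower, with a median of -0.01 and none at least 2-fold apart. Car12, a carbonic anhydrase, differed by 0.64, Slc11a2, an iron importer, by 0.42 from 11.84 to 12.26, and Lox, a collagen cross-linking enzyme, by -0.91. Hif1a differed by -0.37, Epas1, which encodes HIF-2 alpha, by 0.08, and Vhl by -0.48. Glycolysis genes had a median of -0.02 over 18 genes, oxidative phosphorylation genes -0.01 over 31 and iron genes -0.05 over 24.

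Matrix genes and markers of other cell types were lower by small amounts. Mmp3, stromelysin 1, read 8.02 on the deleted and 6.66 on the deleted Min array, with 6.45 and 5.70 in the floxed pair, a difference of -1.36. The metalloproteinases near it, Mmp13 and Mmp10, differed by -0.75 and -0.56, and in the whole list 3 of 14 genes were higher and 11 lower, with a median of -0.10. Mmp3 and Mmp13 are made mainly by stromal cells. Of 29 fibroblast markers 4 were higher and 24 lower, with a median of -0.12 and summed levels of 41717 on the deleted and 38408 on the deleted Min array. Their part in the Mmp3 difference was not tested.

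Dmp1, an acidic matrix protein best known from bone and dentin, read 7.96 and 6.67, with 3.81 and 3.58 in the floxed pair, a difference of -1.30. Its mean over probe sets differed by -0.73. Mmrn1, multimerin 1 of platelets and endothelium, read 7.87 and 6.79, with 6.96 and 7.05 in the floxed pair, a difference of -1.09. Lyve1, a marker of lymphatic vessels, differed by -0.78, while the 23 endothelial markers had 10 higher and 13 lower, with a median of -0.06 and summed levels of 6799 and 6217. For Mmrn1 and Lyve1 the deleted array was the highest of the 4. The remaining lower gene has the clone symbol 2310079G19Rik, and it read 7.62 and 6.05, with 8.87 and 8.36 in the floxed pair, a difference of -1.58.

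Immunoglobulin probe sets disagreed with each other. The brightest Igk probe set read 9.60 on the deleted and 8.05 on the deleted Min array, with 9.49 and 8.86 in the floxed pair, a difference of -1.55. The other Igk probe sets above the floor differed by -0.30 and 0.46. The variable segments Igkv4-68 and Igkv6-20 were higher by 1.10 and 1.00, from 5.25 to 6.35 and from 6.02 to 7.02. Such segments are used by single B cell clones and share sequence. The list of B lymphocyte and plasma cell genes had 3 of 16 higher and 13 lower, with a median of -0.21, summed levels of 29562 and 27510, and Ms4a1, the B cell antigen CD20, at -0.63.

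Neuron and glia markers were the list with the lowest median. Of 19 above the floor 1 was higher and 18 lower, with a median of -0.44 and none at least 2-fold apart. The peptide Vip read 10.02 on the deleted and 9.13 on the deleted Min array, with 10.16 and 9.94 in the floxed pair, a difference of -0.88. Snap25, of synaptic vesicle fusion, differed by -0.79, Syt1, its calcium sensor, by -0.68, Stmn2 by -0.66 and Tac1, the precursor of substance P, by -0.63. The summed level was 6138 on the deleted and 4750 on the deleted Min array, and 7265 and 6602 in the floxed pair. With floxed Vhl 3 of the 19 were higher and 16 lower, with a median of -0.28. Enteric neurons lie mostly below the scraped mucosa, and smooth muscle markers, from the same deeper layers, had 7 of 22 genes higher, 15 lower and a median of -0.05. The depth of scraping was not tested.

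**Figure D4:**
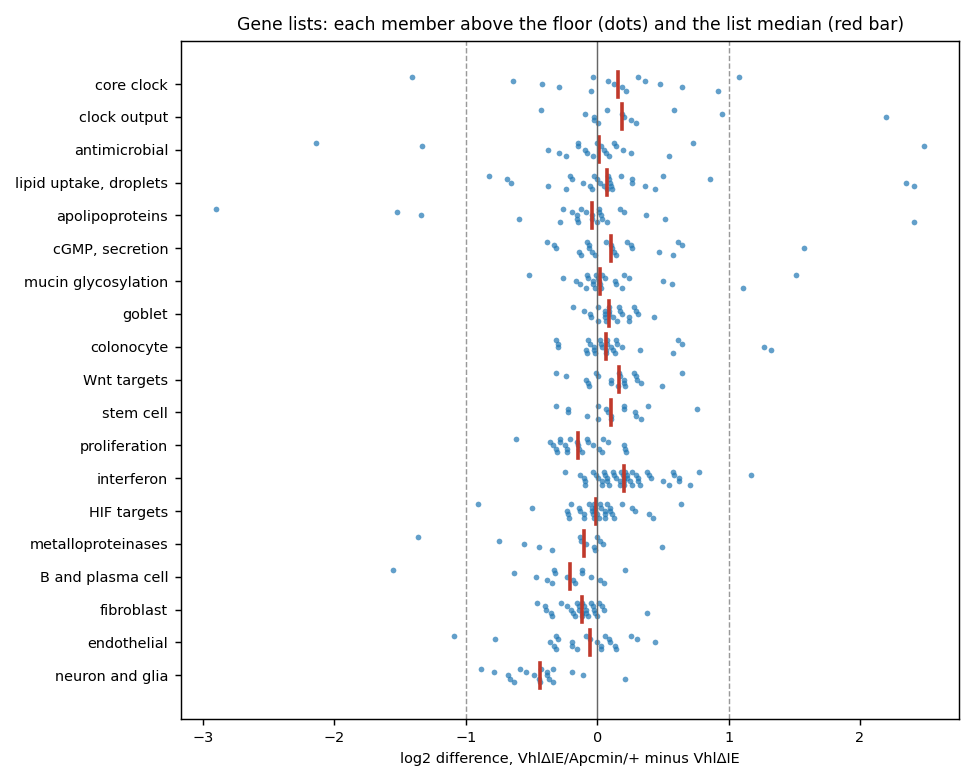
Each dot is the difference between the VhlΔIE/Apcmin/+ and VhlΔIE arrays (horizontal axis, log2) of a gene in 1 of 19 lists (vertical axis), and each red bar is the median of the list, with dashed lines at 2-fold. Medians of these 19 lists lie between -0.44 for neuron and glia markers and 0.20 for interferon genes. Single genes of the lipid, antimicrobial and clock lists lie far outside this range. Higher medians were found for the Paneth cell list, 0.49 over 5 genes, and a pancreatic acinar list, 0.35 over 7 genes.

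The same Apc mutation with floxed Vhl was measured on the other arrays, which share none with the comparison above. It gave 14 genes higher by at least 2-fold (0.118%) and 107 lower (0.901%), 20 of the latter from the hepatocyte list, with 50.8% of all values higher and 49.1% lower, and its standard deviation over genes was 0.31. At 1.5-fold 125 genes (1.05%) were higher and 280 (2.36%) lower. Of the 24 genes higher with deleted Vhl, 9 had the same sign with floxed Vhl and 15 the opposite one, and their median difference there was -0.38. For 9 of them the floxed difference was at least 2-fold in the opposite direction: Ang4, Lpl, Hsd17b13, Prkg2, B3gnt6, Cyp2c65, Slc3a1, Ugt2b5 and B4galnt1. Ugt2b5 reached the floor only on the floxed array, which favours a floxed fall, and Hsd17b13 only on the deleted Min array. The part of the liver transcripts of the floxed array in these 9 floxed differences was not tested. Dbp and Hoxd10 were at least 2-fold higher in both, which is 8.33% of the 24 genes and 14.3% of the 14 genes of the floxed comparison. The floxed Min array was the lowest of the 4 for 12 of the 24 genes, and the deleted array for 9. The choice of these genes favours a low place of the deleted array.

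Of the 14 genes lower with deleted Vhl, 13 had the same sign with floxed Vhl, where their median was -0.92. Of these, 7 were at least 2-fold lower in both, which is 50% of the 14 genes and 6.54% of the 107. They are Apoa1, Apoa4, Apoc3, Reg3b, Reg3g, Cyp3a11 and Slc34a2. For Cyp3a11 and the apolipoproteins, which liver makes, the floxed differences stand beside a hepatocyte median of -2.32 and an Alb difference of -5.44 in that pair. That median rests in part on genes that reached the floor only on the floxed array. Mmrn1 was the exception in sign, with 0.09. Conversely, the 107 genes lower with floxed Vhl had a median of 0.05 with deleted Vhl, with 63 higher and 44 lower. Across all genes 58.5% had the same sign in both comparisons. With 1 array per genotype, the difference between the backgrounds could not be tested.

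The members also differed in where the deleted array stood beside the floxed array. Of the 24 higher genes 12 were at least 2-fold lower on the deleted than on the floxed array, and for 10 the deleted Min value lay within 1 of the floxed value. Of the 14 lower genes, 4 were at least 2-fold lower and 3 at least 2-fold higher on the deleted than on the floxed array. These values share the deleted array with the comparison itself, so a low value there favours a place among the higher genes. The shares over all genes were not counted, and the counts are a description of the 4 levels only.

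**Figure D5:**
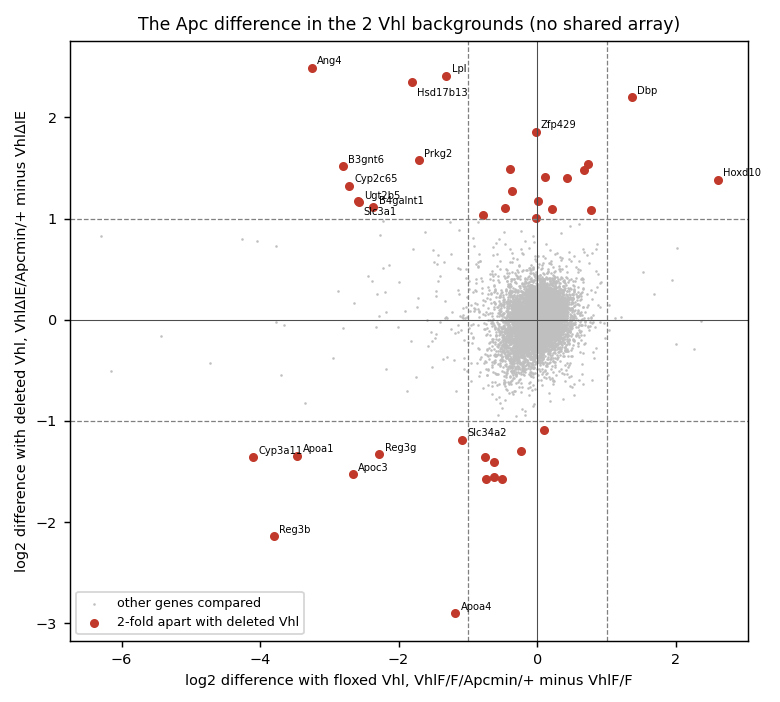
The Apc difference with deleted Vhl (vertical axis, log2) is plotted against that with floxed Vhl (horizontal axis, log2) for all 11871 genes, with the 38 genes at least 2-fold apart with deleted Vhl in red and dashed lines at 2-fold. The red genes at the upper left, led by Ang4, went opposite ways, 7 at the lower left were lower in both, and Dbp and Hoxd10 at the upper right were higher in both.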

How the data were processed

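The authors deposited log2 values, 1 for each of 45101 probe sets on each of 4 arrays, and the submitters' processing notes name affy and RMA. Their versions, and which arrays were normalized as 1 set, were not given in those sources. RMA brings arrays to 1 distribution, so a shift of all transcripts would not be seen, and differences between dim values are understated. Of the probe sets, 34958 had a single symbol in the platform annotation, 932 had several and 9211 had none listed. Entrez identifiers of 34754 were found in RefSeq GRCm38.p6, with 0 symbols changed.

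Differences are 1 array minus another, computed with Python 3.11.15, numpy 2.4.6 and pandas 2.3.3, with plots by matplotlib 3.10.9. Cyclic loess used limma 3.58.1 in R 4.3.3. No p-value was computed. The number of arrays limits the precision. The counting was tested on simulated data with the same noise for all genes, narrower than the spread found here. That checks the counting rule and cannot give a rate of false calls. The comparison, its genes and the 53 gene lists were chosen with earlier results of these data known. The text names all genes at least 2-fold apart, those nearest the threshold, of each list described some or all of the 5 members with the largest differences, any list member at least 2-fold apart, and Vhl, Apc, Hif1a, Epas1, Ctnnb1, Cre and sex-linked genes. Cluster neighbours, Alb, Axin2, Lgr5, Myc, Cry1 and Cry2 were added after their values were seen. So were the lower axial patterning genes and the higher adipocyte markers. Alternatives were no floor, a floor of 7, a floor of 6 in the 2 arrays compared, values under 6 raised to 6, averaging each gene's probe sets, no cross-hybridising probe sets, cyclic loess, median centring and a 1.5-fold threshold.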

Additional observations from a re-analysis of the deposited data

Results flagged for a closer look

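For 9 genes the Apc difference was at least 2-fold in opposite directions in the 2 Vhl backgrounds. With 1 array per genotype each of these differences between backgrounds was not tested, and the values are the difference with deleted Vhl minus that with floxed Vhl on the log2 scale. The value was 5.74 for Ang4, the antimicrobial ribonuclease, from 2.49 and -3.26. It was 4.32 for the core 3 synthase B3gnt6, from 1.51 and -2.81, and 3.48 for the ganglioside enzyme B4galnt1, from 1.11 and -2.36. For the lipid genes it was 4.16 in Hsd17b13, from 2.35 and -1.81, and 3.72 in Lpl, from 2.41 and -1.31. For the metabolic enzymes it was 4.04 in Cyp2c65, from 1.32 and -2.72, and 3.74 in Ugt2b5, from 1.16 and -2.58, where both values with deleted Vhl were dim. For the transporter chain Slc3a1 it was 3.76, from 1.18 and -2.59, and for the kinase Prkg2 3.29, from 1.58 and -1.71. In all 9 genes except Ugt2b5 the floxed Min array was the lowest of the 4. Ugt2b5 reached the floor only on the floxed array, which favours a floxed fall, and Hsd17b13 only on the deleted Min array. The part of the liver transcripts of the floxed array in the floxed differences was not tested.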

How the results depend on the processing

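The 24 higher and 14 lower genes became 86 (0.724%) and 94 (0.792%) at a 1.5-fold threshold, with more genes lower than higher, the opposite order. Under the other 8 alternatives the counts were 19 to 27 and 11 to 16. Of the 38 genes, 22 were at least 2-fold apart in all of these 8, 12 came under 2-fold in at least 1, and 9 were not measured in at least 1. List medians stayed within the spread between probe sets in 418 of 424 recomputations. The neutrophil list, with a median of -0.14 over 5 genes, had one of 0.000874 over 2 genes at a floor of 7. Of 1990 recomputed gene differences 78 moved by more than that spread. A change of sign was found in 7, none of them in the 38 genes. With probe sets averaged, Arnt went from -0.38 to 0.01, Epas1 from 0.08 to -0.09 and Ctnnb1 from 0.01 to -0.01, and without cross-hybridising probe sets Xist went from 0.67 to -0.09. Medians of 20 lists changed sign under at least 1 alternative, all but the neutrophil list from a median of at most 0.05 in size. No paired analysis was possible because each genotype has 1 array. Leaving out a replicate was not possible for the same reason. Array signal near background limits the 9 higher and 3 lower genes that read under 6 on an array compared.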

Other observations

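Further cell types and pathways of the mucosa were measured on the same arrays. Tuft cell markers, of the rare chemosensory cells, had 9 of 10 genes higher with the Apc mutation and deleted Vhl, with a median of 0.15. Of these, Hpgds and Rgs13 were under the floor on both arrays compared, and over the other 8 genes 7 were higher, with a median of 0.07. With floxed Vhl 1 of 10 was higher, with a median of -0.31. Il17rb, the receptor for interleukin 25, differed by 0.51, from 7.37 to 7.87. Enteroendocrine markers had 13 of 24 genes higher and a median of 0.01, with the granule protein Chga at 0.36 and Scg2 at -0.58. MHC class II genes, which present antigen, had 1 of 9 genes higher and a median of -0.03. T and natural killer cell markers had 2 of 12 higher and a median of -0.12, and macrophage and dendritic cell markers 12 of 28 higher and a median of -0.06, with the monocyte receptor Ccr2 at -0.59.

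Metabolic programmes stayed close to 0 as lists. Sterol synthesis genes had a median of 0.02 over 20 genes with differences between -0.19 and 0.18, and fatty acid oxidation genes 0.00 over 24. Inflammatory mediators had 14 of 25 genes higher and a median of 0.02. Immediate early genes, which respond to handling within minutes, had 18 of 23 genes higher and a median of 0.10. Of all 53 lists, 33 had a median within 0.1 of 0.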
